A study of Homo sapiens with 8 samples.

Results

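The genes described here belong to the type I interferon response and were followed across 8 clones of PC-3, an established line of androgen-independent prostate cancer cells: BST2, IFITM1, ISG15, OASL, IRF7, IRF9, IFI35, IFIT1 and RIGI. They are 9 of the 14884 genes measured. The genes were chosen by their measured values in these same arrays, namely lower levels in clones that carry RWDD4 than in control clones, with RWDD4 clone 24 apart from the other RWDD4 clones. Their differences between the groups, and between clone 24 and the rest, are therefore given as a description with no test. The rule gave 10 names, of which DDX58 is an older name of RIGI, and 1 probe set stood for each of the 9 genes. The working description of these genes as kept high in clone 24 held for some of them only: clone 24 lay within the range of the control clones for 4 genes, below it for 4 and above it for RIGI. Of those within the range, IFITM1, ISG15 and IRF9 in clone 24 were above control clone 5 only.

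All 8 clones are isolates of PC-3 that had received a p-Lenti lentiviral vector and were selected with blasticidin (written blastocydin in the labels). In the RWDD4 group, clones 5, 6, 17 and 24 carried the vector with the gene RWDD4, and in the control group clones 2, 3, 4 and 5 carried the empty vector. Clone numbers do not link the groups, so RWDD4 clone 5 and control clone 5 are different isolates. Each clone was measured once, on 1 Affymetrix array, and whether its RNA came from more than 1 culture is not given in the sources used here. A clone carries its own history as well as its vector, no array of PC-3 without vector was analysed here, and the promoter that drives RWDD4 is not given in the sources used here.

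Type I interferons are secreted proteins that bind a receptor on the same or a neighbouring cell. Through the receptor's kinases JAK1 and TYK2 the signal reaches a complex that contains IRF9 and binds the interferon-stimulated response element (ISRE) in the promoters of many genes. Among these genes are antiviral effectors, such as BST2, IFITM1, IFIT1, OASL and ISG15, and parts of the pathway itself, such as IRF9, IRF7 and the RNA sensor RIGI, so that the response can sustain itself.

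Promoter sequences from RefSeq (GRCh38.p14) were matched to 7 of the 9 genes, and stretches of 4 are printed because they hold the ISRE core letters GAAANNGAAA upstream of the annotated start. The sequences run 5′ to 3′ along the gene's strand, with matches on either strand in capitals; where 2 matches overlap or lie close, both are in capitals. BST2 lies on the minus strand at chr19:17405715-17405790, with matches that begin at -130 and -124, counted in bases from the annotated start. ISG15 lies on the plus strand at chr1:1013354-1013429, with matches at -113 and -107. IFIT1 lies on the plus strand at chr10:89392477-89392559, with matches at -116 and -103, read on the opposite strand. IFITM1 lies on the plus strand at chr11:313970-314039, with a match at -40; a second match begins at -6, runs past the start and is not capitalised.
BST2: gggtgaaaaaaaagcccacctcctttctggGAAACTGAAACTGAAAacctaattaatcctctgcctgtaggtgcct
ISG15: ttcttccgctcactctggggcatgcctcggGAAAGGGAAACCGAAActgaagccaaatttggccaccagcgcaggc
IFIT1: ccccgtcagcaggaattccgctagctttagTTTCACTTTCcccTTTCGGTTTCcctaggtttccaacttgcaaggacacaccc
IFITM1: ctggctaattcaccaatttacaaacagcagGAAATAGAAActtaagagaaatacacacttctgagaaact

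The ISRE letters were found in 4 of the 7 windows, each from 250 bases before to 50 after the start. The same letters were present in 996 of 27305 promoters of that length (3.65%). The windows of IRF9, IFI35 and RIGI held no such match. A second motif, GAS (TTCNNNGAA, the same on both strands), another interferon response motif, was found in BST2, IFITM1, IRF9 and IFI35, and in 7.88% of all promoters. In BST2 a GAS match overlapped the ISRE matches, and in IFITM1 a GAS match overlapped the ISRE match that crosses the start. A match is a run of letters and does not show that a factor binds there.

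**Figure D1:**
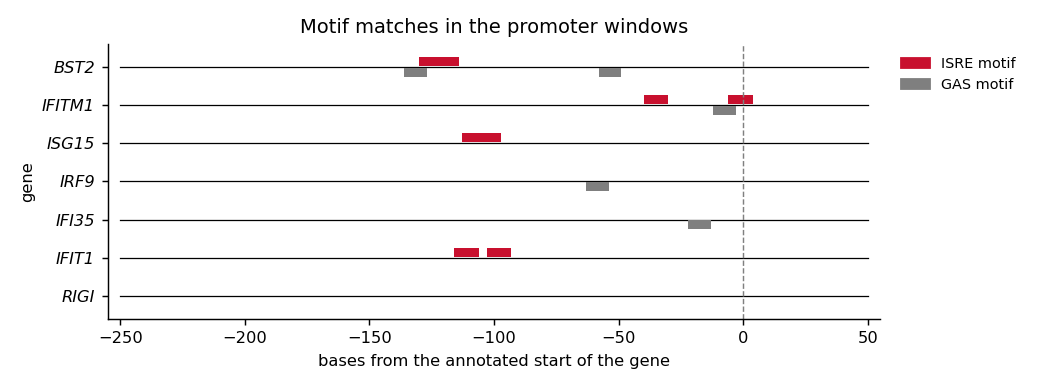
Positions of ISRE (red) and GAS (grey) letter matches from 250 bases before to 50 bases after the annotated start (0, dashed line) of the 7 genes with a promoter sequence. BST2, IFITM1, ISG15 and IFIT1 hold ISRE matches, the farthest at -130 in BST2.

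Values are log2 expression levels as deposited; they compare 1 gene between clones and do not rank genes against each other. Array medians spanned 4.888 to 4.964, with clone 24 at the lower end. RWDD4 lay at 10.45 in clone 24, against 10.46, 9.87 and 10.42 in RWDD4 clones 5, 6 and 17 and 6.64, 7.58, 7.21 and 7.996 in control clones 2, 3, 4 and 5. Clone 24 was therefore not low in the transcript that defines the group. Of the epithelial markers, 5 of 6 were measured (KRT8, KRT18, KRT19, EPCAM and CLDN4), and their mean was 8.034 in clone 24, the lowest of RWDD4 clones that reached 8.122, while control clones spanned 8.325 to 8.536. KLK3 and KLK2, 2 of 5 markers of androgen-responsive luminal cells, averaged between 5.635 and 5.98 in every clone. Of the blood cell markers only CD14 was measured, at 4.196 in clone 24, the top of a RWDD4 range that began at 3.925, while control clones spanned 4.315 to 4.83. PECAM1, VWF and THY1, 3 of 6 stromal and endothelial markers, averaged 5.318 in clone 24, within a RWDD4 range of 5.29 to 5.411, while control clones spanned 5.514 to 5.709. The part of these lists in the interferon results was not tested.

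IRF9 is the DNA-binding part of the complex that carries the type I interferon signal to the nucleus. Its level was 8.58, 8.71, 8.87 and 8.24 in control clones 2, 3, 4 and 5, and 6.76, 7.16, 6.86 and 8.28 in RWDD4 clones 5, 6, 17 and 24. Clone 24 lay just above control clone 5, while the other 3 RWDD4 clones were at least 1 log2 unit below every control clone. The RWDD4 mean was 7.27 ± 0.70 (SD, n = 4) against 8.60 ± 0.27 (SD, n = 4), a difference of -1.34 (SE 0.29). Clone 24 exceeded the mean of the other RWDD4 clones (6.93 ± 0.21, SD, n = 3) by 1.35, or 2.55-fold.

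IRF7, a transcription factor that interferon induces and that raises further interferon synthesis, did not follow clone 24 alone. It lay at 8.58, 8.68, 10.07 and 8.72 in control clones 2, 3, 4 and 5, and at 8.12, 7.10, 7.26 and 8.02 in RWDD4 clones 5, 6, 17 and 24. The groups did not overlap, control clone 4 was well above the other control clones, and the highest RWDD4 clone was 5, not 24. The difference between group means was -1.39 (SE 0.34), and -1.03 without control clone 4. Clone 24 was 0.53 above the mean of the other RWDD4 clones, about as much as their SD of 0.55 (n = 3).

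RIGI encodes a cytosolic sensor of viral RNA and was the exception in direction. Control clones 2, 3, 4 and 5 had 5.46, 6.84, 6.25 and 5.93, and RWDD4 clones 5, 6, 17 and 24 had 6.42, 6.81, 6.61 and 7.42. Clone 24 was the highest of the 8 clones, by 0.81 over the mean of the other RWDD4 clones, and those 3 clones lay within the control range. The group difference was 0.70 (SE 0.28) in favour of the RWDD4 clones, the opposite sign to the other 8 genes, and 0.49 without clone 24.

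ISG15 is a ubiquitin-like protein that is secreted and also attached to other proteins. It lay at 11.74, 11.72, 11.80 and 10.84 in control clones 2, 3, 4 and 5. In RWDD4 clones 5, 6, 17 and 24 it lay at 8.94, 8.98, 9.35 and 11.01. Clone 24 exceeded control clone 5, and the other RWDD4 clones were far below all controls. Its group means were 11.52 ± 0.46 and 9.57 ± 0.98 (SD, n = 4 each), with a difference of -1.95 (SE 0.41). The SD of the RWDD4 group came mostly from clone 24: over the other 3 clones it was 0.23. Clone 24 exceeded their mean by 1.92, or 3.79-fold.

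IFITM1, a membrane protein that blocks virus entry, showed the widest gap between clone 24 and the other RWDD4 clones. It was measured at 10.80, 11.19, 11.16 and 10.49 in control clones 2, 3, 4 and 5 and at 7.77, 8.01, 8.22 and 10.59 in RWDD4 clones 5, 6, 17 and 24. Clone 24 was 2.59 log2 units (6.04-fold) above the mean of the other RWDD4 clones, whose SD was 0.23 (n = 3), and above control clone 5. The group difference of -2.26 (SE 0.51) averages 3 clones that were 2.91 below the control mean with 1 clone that was 0.31 below it.

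BST2 (tetherin), which holds budding virus particles at the cell surface, had the lowest values of the RWDD4 group relative to control. Control clones 2, 3, 4 and 5 lay at 7.16, 7.84, 8.02 and 5.90, and RWDD4 clones 5, 6, 17 and 24 at 3.41, 3.66, 3.54 and 5.46. The 3 low RWDD4 clones were under the median of all probe sets (4.92), so their difference from control, -3.69 on average, was measured at the low end of the arrays. Clone 24 was 1.93 above them on the deposited scale, with no fold given because signal over background is not known, and still below control clone 5, so the groups did not overlap.

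IFIT1 binds viral RNA that lacks the cell's own cap marks. It lay at 5.64, 7.16, 7.27 and 5.71 in control clones 2, 3, 4 and 5 and at 4.98, 5.15, 4.49 and 6.53 in RWDD4 clones 5, 6, 17 and 24. The control clones fell into a high pair (3 and 4) and a low pair (2 and 5), and clone 24 lay between the pairs, at 0.09 above the control mean. The group difference was -1.16 (SE 0.48), and -1.57 without clone 24.

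OASL, a relative of the oligoadenylate synthetases that aids RIGI signalling, was low in all RWDD4 clones, clone 24 included. Its values were 7.89, 8.09, 7.78 and 7.38 in control clones 2, 3, 4 and 5 and 6.53, 6.69, 6.32 and 6.69 in RWDD4 clones 5, 6, 17 and 24. The groups did not overlap, with a difference of -1.22 (SE 0.15). Clone 24 was 0.18 above the mean of the other RWDD4 clones, about their SD of 0.18 (n = 3), and clone 6 was as high. OASL therefore goes against the description of a gene kept high in clone 24.

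IFI35, an interferon-induced leucine zipper protein, was intermediate. Control clones 2, 3, 4 and 5 had 9.26, 9.14, 9.56 and 8.44, and RWDD4 clones 5, 6, 17 and 24 had 7.41, 7.65, 7.62 and 8.16. Clone 24 was the highest RWDD4 clone, by 0.60 over the mean of the other 3 (SD 0.13), but below every control clone. The group difference was -1.39 (SE 0.23).

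**Figure D2:**
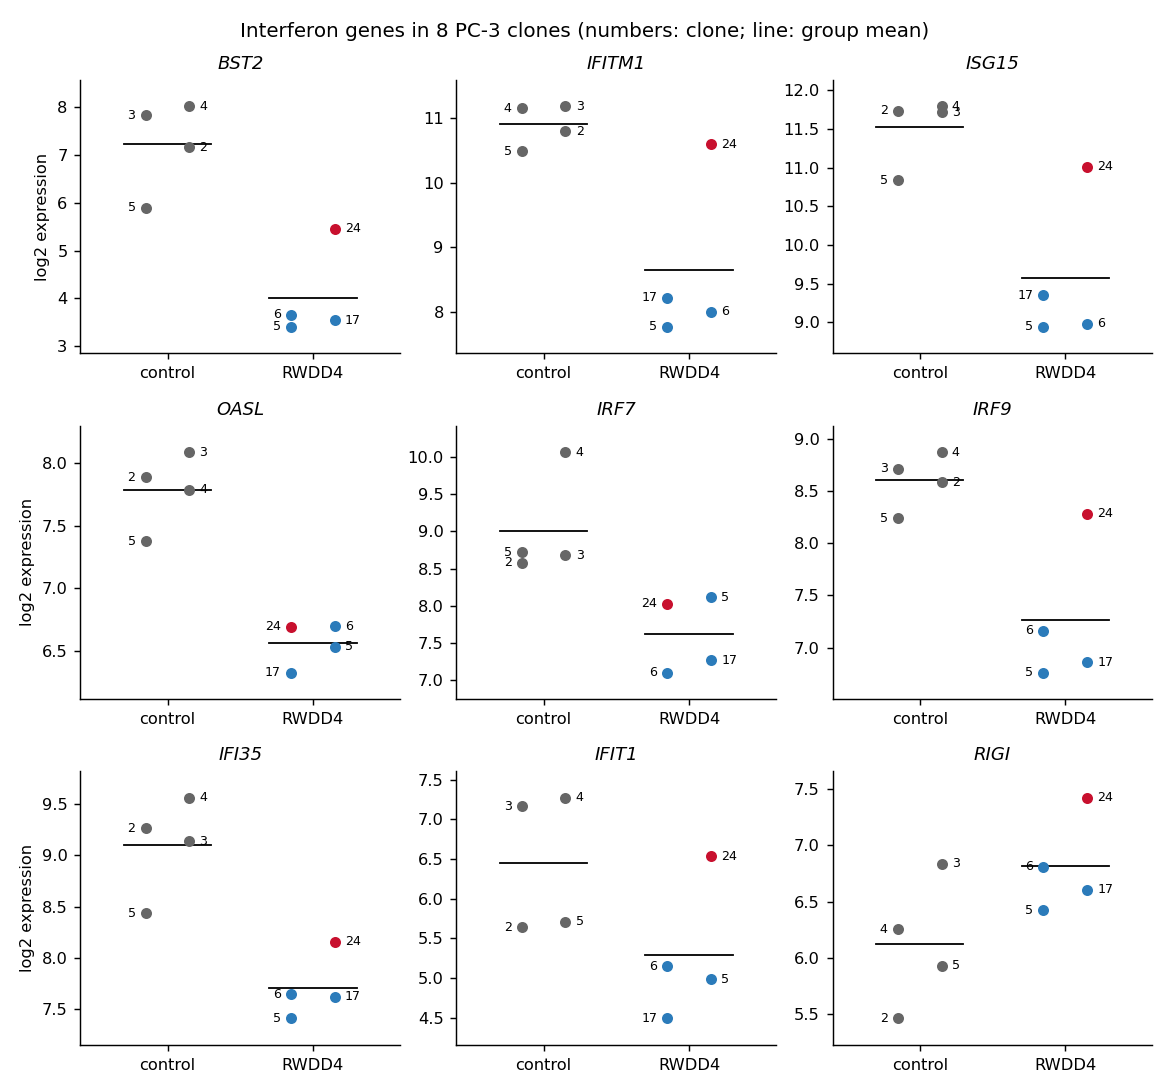
Log2 expression (y axis, a separate scale for each gene) of the 9 genes in the control clones (grey) and RWDD4 clones (blue; clone 24 in red), 1 point per clone labelled with its clone number, with the group mean as a line. Clone 24 lies within the control range for IFITM1, ISG15, IRF9 and IFIT1, below it for BST2, OASL, IRF7 and IFI35, and above it for RIGI.

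By limma with adjustment over all 14884 genes, 7 of the 9 genes were called lower in the RWDD4 clones, as were 21.6% of all genes. None of the 9 was called higher, against 25.1% of all genes. The genes were chosen on this contrast, so nothing is read from these counts. IFIT1 and RIGI were not called. The split of calls over all genes, 3741 higher and 3214 lower, became 3945 and 2373 with median centring and 3980 and 2200 with cyclic loess. The median difference over the 9 genes was -1.39, beside a median of -0.08 over all genes.

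Taken 1 clone at a time, RWDD4 clones 5, 6 and 17 resembled each other. Each lay below all 4 control clones for 8 of the 9 genes and within the control range for RIGI. Their median distance from the control mean over the 9 genes was -1.69, -1.45 and -1.75. Clone 24 was below all control clones for 4 genes, and its median distance was -0.51. The share of all genes below every control clone was alike in the 4 RWDD4 clones, at 40.6%, 41.0%, 35.5% and 35.9% in clones 5, 6, 17 and 24, with clone 17 the lowest.

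For 4 of the 9 genes (IFITM1, ISG15, IRF9 and IFIT1), RWDD4 clones 5, 6 and 17 lay below all control clones and clone 24 did not. Over all genes that pattern was met by 622, or 4.18%. The count among the 9 depended on control clone 5: without it as the low end of the control range, only IFIT1 met the pattern (1 of 9). Over all genes, the pattern count was 860, 849 and 1069 without RWDD4 clone 5, 6 or 17. Leaving out any of these clones loosens the condition, so the count cannot fall.

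Every clone was also set against the mean of the other 3 clones of its own group. Clone 24 was at least 1 log2 unit higher for 5 of the 9 genes (IFITM1, BST2, ISG15, IFIT1 and IRF9), and for 27 of all 14884 genes, or 0.181%. The 9 differences ran from 0.18 (OASL) to 2.59 (IFITM1), with a median of 1.35, and clone 24 was the highest RWDD4 clone for 7 of the 9 genes. Control clones differed as well. Control clone 4 was the highest control for 6 genes. It was at least 1 log2 unit above its group for 3 (BST2, IRF7 and IFIT1), and for 14 of all genes, or 0.0941%. Control clone 5 was the lowest control for 6, with BST2 at -1.77. Medians over the 9 genes were -0.09, 0.37, 0.36 and -0.56 in control clones 2, 3, 4 and 5, and -0.52, -0.18 and -0.48 in RWDD4 clones 5, 6 and 17.

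**Figure D3:**
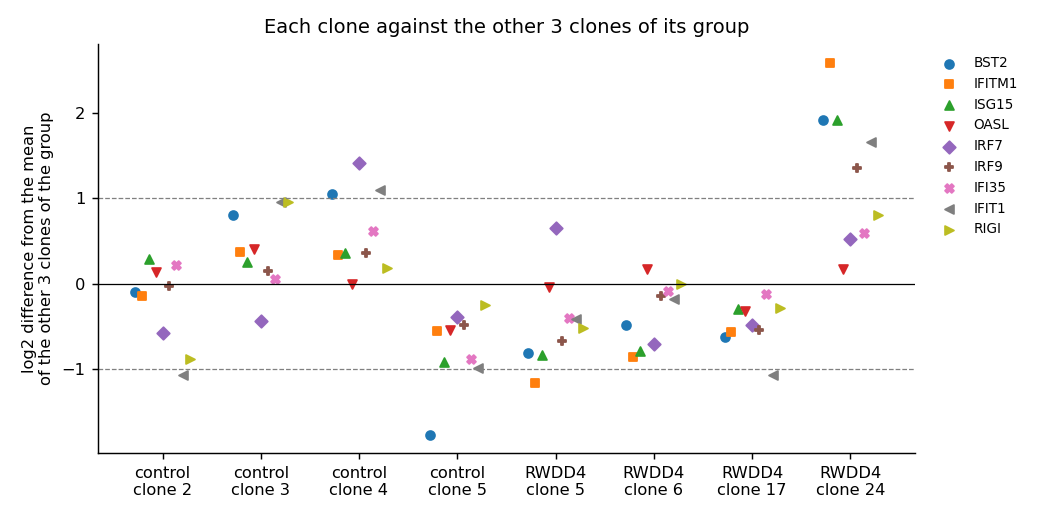
Difference in log2 expression (y axis) of each clone from the mean of the other 3 clones of its group, for the 9 genes (symbols); dashed lines mark 1 log2 unit either way. Clone 24 stands at 0.18 to 2.59 for all 9 genes, control clone 5 is below 0 for all 9, and control clone 4 is at or above 0 for all 9.

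The likeness of the 9 genes to each other among clones is given as a description. After each value was centred on its group mean, the r between pairs of the 9 genes over the 8 arrays ran from 0.03 to 0.96, with a median of 0.69 over 36 pairs. These r share the same 8 arrays and are descriptive. The 9 genes were chosen in part because clone 24 stood apart from the other RWDD4 clones. Centring on group means keeps that distance, so positive r is partly built in by the choice. Nothing is therefore read from the r in this paragraph about whether the genes move together. BST2, IRF9, IFIT1, ISG15 and IFITM1 followed the mean of the other 8 genes most closely (r = 0.96, 0.94, 0.90, 0.89 and 0.88), and IRF7 and OASL least (0.43 and 0.56).

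The 27 genes that were at least 1 log2 unit higher in clone 24 than in the other RWDD4 clones held 5 of the 9 genes, 6 further interferon pathway genes of the list described next and 16 others. The 6 were IFI44 (2.03), IFI44L (2.03), HERC6 (1.26), IFIT3 (1.17), UBE2L6 (1.14) and DDX60 (1.11). Of the genes measured outside the 9, 66 were on the pathway list, so 9.09% of that list passed this fold, beside the 0.181% of all genes. Among the 24 of the 27 genes with a promoter sequence, 10 (41.7%) held the ISRE letters, beside 2.94% of the 10749 measured genes with one. Of the 13 outside the 9 genes and the pathway list, TMEM140 and BCL2A1 did (15.4%). The letters were also found in 27 of 52 other pathway genes with a promoter sequence (51.9%), and the 10 hold 8 members or pathway genes. With 1 clone on 1 side, none of these differences has a replicate check. The 27 genes were taken by the distance of clone 24, on which the 9 genes were chosen in part. The pathway list was not drawn up blind to these data, so nothing is read from these shares.

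**Figure D4:**
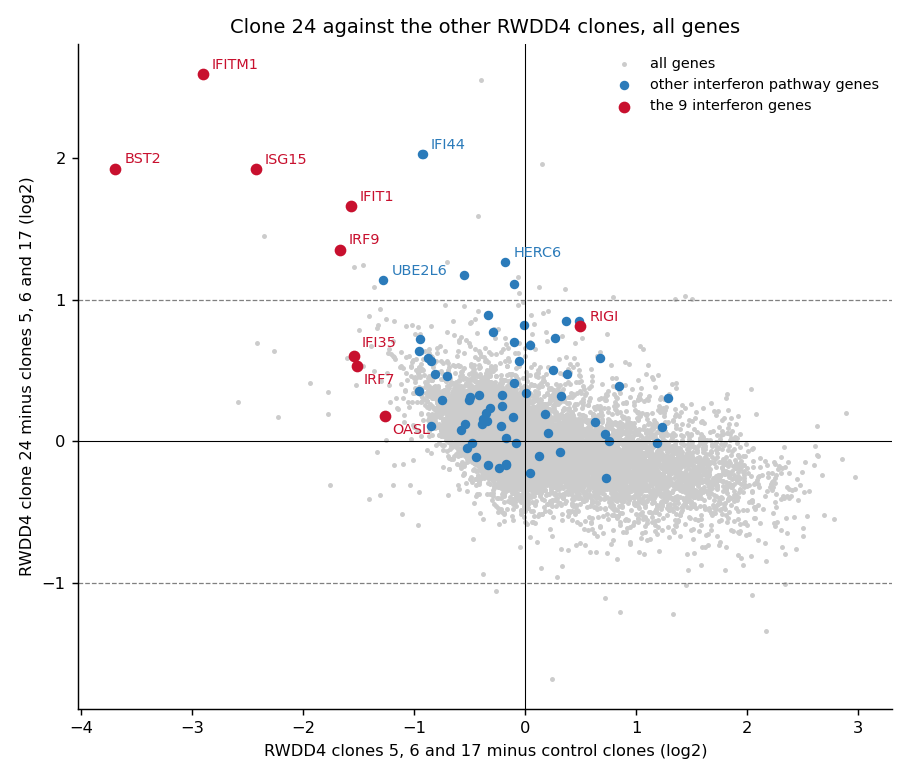
Each point is 1 of 14884 genes, with the difference of RWDD4 clones 5, 6 and 17 from the control clones on the x axis and of clone 24 from those 3 clones on the y axis (both log2); the 9 genes are red and the 66 other pathway genes blue, and dashed lines mark 1 log2 unit. Both axes contain the mean of clones 5, 6 and 17; IFITM1, BST2 and ISG15 lie farthest to the upper left.

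Other genes of the interferon pathway were listed by role, with the 9 genes left out. Of 138 listed genes 66 were measured; 22 of them fell and 13 rose in the RWDD4 clones by limma at an adjusted p under 0.05 over all genes, beside the 21.6% and 25.1% of all genes given above. With median centring 16 fell and 14 rose, and with cyclic loess 15 and 13. Their median difference was -0.14, against -0.08 over all genes. The counts by role given below are small, stand beside the same shares of all genes, and nothing is read from them. Clone 24 was the highest RWDD4 clone for 40 of the 66 (60.6%), against 24.9% of all genes, and its median distance from the other RWDD4 clones was 0.30. The control clones differed on this list as well: control clone 3 was the highest control for 26 genes (median distance 0.17) and control clone 4 for 24 (0.12). Control clone 3 was at least 1 log2 unit above the other control clones for 3 of the 66 (4.55%), beside 0.228% of all genes. Whether clone 24 differs from these clones in this respect was not tested. The list was not drawn up blind to these data. Counts changed when single clones were left out, for all genes as well. Without RWDD4 clone 5, 14 of the 66 fell and 9 rose, beside 15.2% and 22.7% of all genes. Without clone 24, 23 fell and 7 rose, beside 18.4% and 24.1%. With each array's place on the main axis of spread among clones of a group as a covariate, none of the 66 passed (6 at an unadjusted p under 0.05 by limma). Of the genes named here IFNGR1, EIF2AK2, IRF2BP1 and IRF2BP2, which had passed, changed sign, as did IRF2 and MAVS, which had not. Those places kept the difference between the groups, so the covariate can overlap with the group and nothing is read from these changes.

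None of the 21 interferon genes themselves was among the measured genes, so the ligands were not analysed here. Of the receptors, IFNGR1 of the type II interferon receptor rose by 0.75 (SE 0.24, adjusted p 0.0276 by limma), which did not pass without clone 24, RWDD4 clone 5 or 6, or control clone 2 or 4. IFNGR2 lay at -0.15. IFNAR1 and IFNAR2, the type I receptor, were not analysed here.

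Of 8 kinases, STATs and interferon regulatory factors 2 rose and 4 fell. The receptor kinase JAK1 rose by 1.18 (SE 0.20, adjusted p 0.000843 by limma), from 8.52 ± 0.47 to 9.70 ± 0.11 (SD, n = 4 each), and JAK2 rose by 0.66. The factors IRF1 and IRF3 fell, with differences of -0.73 and -0.68, as did TYK2 (-0.34) and IRF5 (-0.26). In clone 24 IRF1 was 0.59 above the other RWDD4 clones, while JAK1 was at -0.01 and JAK2 at -0.26. STAT3 and IRF2, at -0.21 and 0.30, did not pass.

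Of 11 sensors and adaptors 2 rose and 3 fell. TBK1, the kinase that activates IRF3, rose by 1.36 (SE 0.23, adjusted p 0.00101 by limma) and the RNA-dependent kinase EIF2AK2 (PKR) by 0.82, the latter not without clone 24 or with the trend over gene span removed. The Toll-like receptor adaptor TICAM1 (-0.51), the nucleic acid sensor ZBP1 (-0.48) and DHX58 (-0.29), a relative of RIGI, fell. IFIH1 (MDA5), the other main cytosolic RNA sensor, lay at -0.11 between groups and was 0.89 higher in clone 24 than in the other RWDD4 clones; DHX58 differed by -0.19 there. MAVS, the adaptor of RIGI, was at -0.01 and -0.22, and STING1 at -0.33 and 0.33, for these differences.

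The enzymes that attach ISG15 to proteins, or remove it, were listed as 5 genes, all measured, of which 3 fell. UBE2L6, the conjugating enzyme, fell, with a difference of -0.998 (SE 0.26, adjusted p 0.00911 by limma). Its levels in RWDD4 clones 5, 6, 17 and 24 were 5.65, 5.93, 5.67 and 6.88, against 6.64 to 7.32 in the control clones, so clone 24 was within the control range. UBA7, the activating enzyme, fell by 0.83 with no overlap between groups, and clone 24 was 0.11 above the other RWDD4 clones. USP18, which removes ISG15 and restrains the receptor, fell by 0.71, and clone 24 was 0.56 above the other RWDD4 clones. The ligase HERC5 and its relative HERC6 did not pass, at 0.45 and 0.13, and clone 24, at 6.56 and 7.66, was above all control clones for both. For HERC5, RWDD4 clones 5 and 6, at 6.03 and 5.97, were also above all control clones.

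Of 4 other negative regulators 3 fell. SOCS3 fell by 0.87 (SE 0.15, adjusted p 0.00108 by limma), and the differences of IRF2BP1 and IRF2BP2 were -0.54 and -0.36. SOCS1 lay at -0.21. Clone 24 differed from the other RWDD4 clones by 0.36 for SOCS3 and by -0.16 for SOCS1. The falls of IRF2BP1 and IRF2BP2 did not pass with the trend over gene span removed, and that of IRF2BP2 was also lost, at -0.019, with the median of its probe sets.

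Calls among 24 antiviral effectors went in both directions, with 6 higher and 5 lower. These counts are near the shares of all genes called, 25.1% higher and 21.6% lower. IFIT5 rose by 1.26 (SE 0.21, adjusted p 0.000907 by limma), the nucleotide hydrolase SAMHD1 by 0.95 and TRIM5 by 0.73. MX2 and RSAD2 (viperin) fell, with differences of -0.80 and -0.77 and adjusted p of 0.0388 and 0.0399 by limma, and neither passed without RWDD4 clone 5, 6 or 17, without control clone 3 or 4, or after median centring or cyclic loess. TRIM21 (-0.69) and ISG20 (-0.49) fell. IFIT3 and DDX60 did not pass between groups, at -0.26 and 0.18. They were 1.17 and 1.11 higher in clone 24 than in the other RWDD4 clones. Of the relatives of IFITM1, IFITM3 fell by 0.42, with RWDD4 clones 5, 6, 17 and 24 at 6.71, 7.14, 7.404 and 7.394, and IFITM2 lay at 0.22. IFIT2, a relative of IFIT1, lay at -0.10 between groups and was 0.77 higher in clone 24 than in the other RWDD4 clones.

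Of 10 other interferon-induced genes 2 rose (LAP3 by 0.66 and NMI by 0.40) and 3 fell (RTP4 at -0.56, CCL5 at -0.44 and XAF1 at -0.37). The call of CCL5 was lost under 8 of 16 alternatives and that of NMI under 6. IFI44 and IFI44L lay at -0.42 and -0.41 between groups and did not pass. IFI44L was at 4.27, 5.75, 5.45 and 4.74 in control clones 2, 3, 4 and 5 and at 4.14, 4.25, 4.00 and 6.16 in RWDD4 clones 5, 6, 17 and 24. Clone 24 was thus the highest of all 8 clones, and the other RWDD4 clones were the lowest. Without clone 24 the differences were -0.93 for IFI44 and -0.92 for IFI44L. Both genes were named for the distance of clone 24, so these values are a description and no test. The chemokine CXCL10 lay near the low end of the array in all clones (2.99 to 3.54). Of the antigen presentation genes TAPBP (tapasin) fell by 0.59 and B2M lay at -0.13; clone 24 was 0.46 and 0.33 above the other RWDD4 clones.

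Over the 34 effectors and other induced genes, clone 24 was the highest RWDD4 clone for 24. It exceeded all 4 control clones for 19, against 9, 10 and 4 in RWDD4 clones 5, 6 and 17. It was below all control clones for 7, against 14, 12 and 18. Across all genes the share above every control clone was 30.7% in clone 24 and 30.7% to 32.0% in the other RWDD4 clones.

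**Figure D5:**
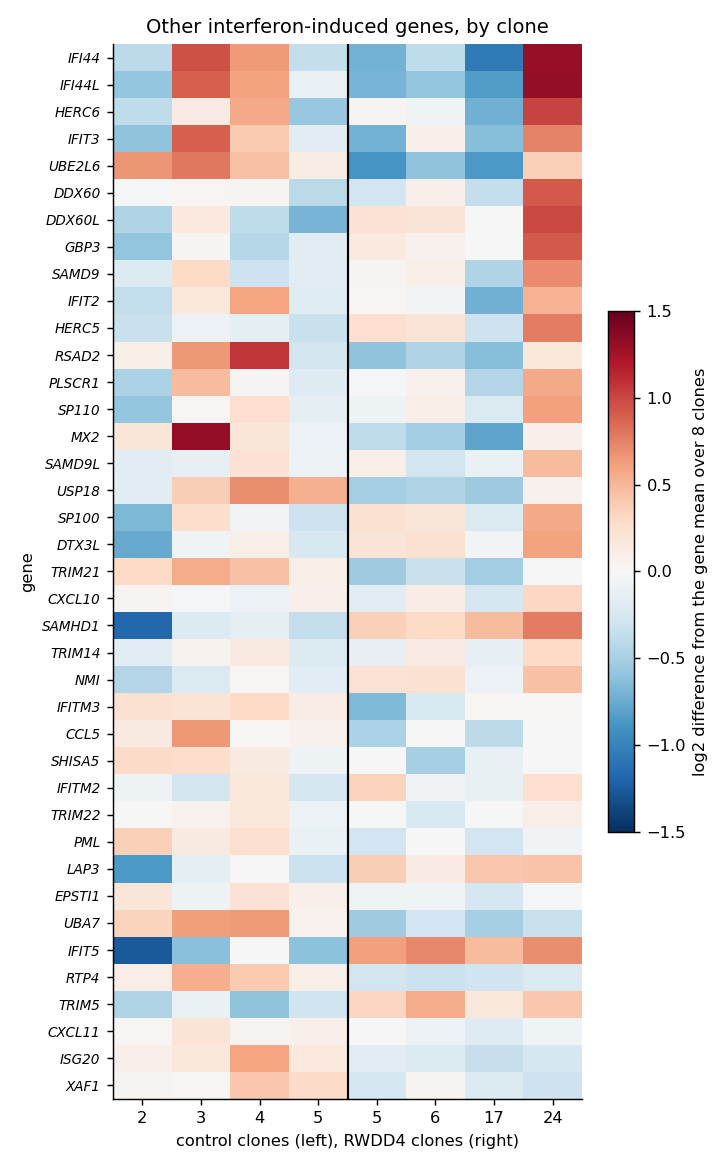
Log2 expression of 39 measured interferon-induced genes (rows: effectors, other induced genes and ISG15 conjugation) in each clone (columns), as the difference from the gene's mean over the 8 clones (colour); rows are ordered by the distance of clone 24 from the other RWDD4 clones. The top rows, IFI44 to HERC5, are above the gene mean in clone 24, and IFIT5, LAP3 and TRIM5 are high in all 4 RWDD4 clones.

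The 10 genes whose profile was most like that of the 9 were found from r over the 8 arrays after centring on group means. They were INAVA (0.97), CD83 (0.97), BEND4 (0.95), IFI44 (0.95), TRIM21 (0.95), CHMP4B (0.94), DENND3 (0.94), TMEM140 (0.94), S100A1 (0.94) and PDGFRL (0.93). IFI44 and TRIM21 are on the pathway list, which holds 0.55% of the 11992 genes ranked and 8 of the leading 50. The ranking uses the mean of the 9 genes, which carries the distance of clone 24 on which they were chosen in part. The list was not drawn up blind to these data, so nothing is read from these counts. The sizes of the differences between clones varied widely. TMEM140 lay at 7.06, 8.23, 7.87 and 6.86 in control clones 2, 3, 4 and 5 and at 5.82, 6.18, 5.88 and 7.19 in RWDD4 clones 5, 6, 17 and 24, so clone 24 lay within the control range. INAVA, an adaptor of innate immune signalling, was 8.38 to 8.54 in RWDD4 clones 5, 6 and 17, 9.32 in clone 24 and 9.44 to 9.86 in the control clones. CHMP4B, S100A1 and PDGFRL had high r with differences between clone 24 and the other RWDD4 clones of 0.35 or less. PDGFRL was not lower in the RWDD4 clones, at 0.20.

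Several of the 9 genes are short. Genomic span was 1.04 kb for ISG15, 1.23 kb for IFITM1, 2.69 kb for BST2 and 3.396 kb for IRF7, against a median of 26.7 kb over 11916 protein-coding genes, and 70.9 kb for RIGI. After each array's trend over span was removed, the median difference over the 9 genes was -1.22 in place of -1.39, and the distance of clone 24 from the other RWDD4 clones was 1.32 in place of 1.35.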

How the data were processed

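Expression was measured on 8 arrays, 1 per clone. The deposited values are log2 levels per probe set, made by the authors with Partek and RMA, which normalizes arrays to each other, per the submitters' processing notes; their version and settings were not stated in the labels. Of 53617 probe sets, 16098 had 1 gene symbol, none had several and 37519 were unlisted in the annotation used; all 16098 matched RefSeq by gene ID. The probe set with the highest mean stood for each of 14884 genes.

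The RWDD4 and control groups (4 arrays each) were compared by limma (version 3.58.1; R 4.3.3), as a moderated two-sided test with no covariate and Benjamini-Hochberg values adjusted over all genes and called under 0.05. P-values judge the difference between group means against the spread between these clones. That difference holds the history of each clone as well as its vector. The limma comparison was tested on simulated data. It recovered 24 of 50 planted changes of 0.5 log2 units and 46 of 50 of 1 log2 unit, and 10 of its 180 calls were false. The noise was drawn separately for each gene, so variation that genes share within a clone was not simulated. The distance of clone 24 and the pattern counts were not part of that test.

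Members and lists were chosen with earlier results of these data known. Pathway genes were named by rule (per role, up to 4 past the test by size, up to 3 not past it by the distance of clone 24); other names from the lists, and genes apart in clone 24, were picked with their values in view. The alternatives tried were scaling, probe set choice, a level filter, gene span, the variance model, array weights, an axis covariate and left-out clones.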

Additional observations from a re-analysis of the deposited data

Results flagged for a closer look

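In groups of 4 clones, a clone was set apart when its gap to the nearest other clone exceeded, as a share of the group's range, Dixon's 95% value; by chance about 1 in 20 groups of genes taken at random would meet it. The genes examined were not taken at random: the 9 genes, some of the pathway genes and the genes most like the 9 were picked by measures that include the distance of clone 24. Where clone 24 is the clone set apart, the values below are therefore a description and no test, and no count is read against chance. Clone 24 was set apart as the highest of its group for BST2 (0.879) and IFITM1 (0.840), and for the mean of the 9 genes (0.923). Of the pathway genes it was set apart for IRF1 (0.857), USP18 (0.857) and IFI44L (0.885), the last of which was named for that distance. Among the genes picked for their likeness to the 9 it was set apart for INAVA (0.835), CD83 (0.843), BEND4 (0.837), DENND3 (0.926) and S100A1 (0.865). Control clone 5 was set apart as the lowest control for ISG15 (0.918) and DDX60 (0.858), control clone 4 as the highest for IRF7 (0.906), and control clone 2 as the lowest for JAK2 (0.954). RWDD4 clone 6 was set apart as the lowest of its group for RWDD4 itself (0.936).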

How the results depend on the processing

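No paired analysis was possible because the groups share only 1 clone number, 5, which names different isolates. With the main axis of spread among clones of a group as a covariate, 1 gene passed in place of 6955 by limma. Of the 66 pathway genes 0 passed in place of 35 (0 lower, 0 higher, 6 at an unadjusted p under 0.05 by limma). The places of the arrays on that axis kept the difference between the groups, so the covariate can overlap with the group. The cause of the lost calls was not tested, and nothing is read from calls or signs under this fit. Under that fit IFNGR1 (-0.29), EIF2AK2 (-0.28), IRF2BP1 (0.11) and IRF2BP2 (0.044) changed sign, and the median over the 9 genes was -1.06 (added after the data were seen). Cyclic loess gave 395 genes with the clone 24 pattern in place of 622, and 3980 higher and 2200 lower calls in place of 3741 and 3214.

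With 1 clone left out, called genes numbered 5630 to 6768, pathway genes 23 to 32 (14 to 23 lower, 7 to 14 higher), and genes with the pattern 578 to 1069. The median difference over the 9 genes was -1.57 to -1.24, and the distance of clone 24 from the other RWDD4 clones 1.27 to 1.47. Over scalings, probe set choice, filter and span these medians were -1.55 to -1.22 and 1.32 to 1.36, and 8 of 9 differences stayed below 0. Signal over background is not known here, which among the 9 genes limits BST2 most.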

Other observations

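Outside the 9 genes and the pathway list, 16 genes were at least 1 log2 unit higher in clone 24 than in RWDD4 clones 5, 6 and 17. The genes named here were picked after their values were seen and have no test. CLTRN (collectrin) lay at 6.95 in clone 24, above the other RWDD4 clones at 3.99 to 5.03 and control clones at 4.19 to 5.59. The cytokine IL33 lay at 6.45, against 3.88 to 5.10 and 3.80 to 5.04, and IL1RL1, its receptor, at 8.49, above RWDD4 clone 5 (7.998) and control clone 3 (7.73), the next highest of each group. For all 3 genes clone 24 was the highest of the 8 clones. GAS6, a ligand of the receptor AXL, lay at 8.75 in clone 24, against 6.88 to 7.59 in the other RWDD4 clones, and GAS6-AS1 was 1.68 lower there; whether the probe sets tell the 2 overlapping transcripts apart was not determined. BCL2A1 and BIRC2, which restrain cell death, and complement C5 were higher in all RWDD4 clones than in any control clone, and clone 24 was the highest of the group, at 9.24, 7.19 and 8.54.

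Fewer genes were apart in the other direction. Clone 24 was at least 1 log2 unit lower for 9 genes, among them CPD (-1.34), RELN (-1.09), LIFR (-1.02), PTBP2 (-1.01) and DYRK1B (-1.06). For CPD, RELN, LIFR and PTBP2, all 4 RWDD4 clones were above all control clones, so clone 24 lay between the control clones and the other RWDD4 clones, as it did for BST2 and IFI35 with the opposite sign.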
